A study of Mus musculus with 4 samples.

Results

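The Hox genes of the 4 mouse clusters were followed through the developing XY gonad and through gonadal cells made from embryonic stem cells. The members were all gene symbols made of Hox, a cluster letter from a to d and a paralogue number, which gave 39 genes (11 in HoxA, 10 in HoxB, 9 in HoxC and 9 in HoxD) among the 31053 gene identifiers counted in each library. They carry 40 identifiers because *Hoxd4* is listed under a pair of identifiers, whose counts were added.

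Hox genes encode homeodomain transcription factors. Paralogue numbers run from the 3′ end of a cluster to its 5′ end, and the genes are switched on in that order and at successively more posterior levels of the embryo, so that the set a cell uses records its position on the body axis. Low numbers belong to hindbrain and neck, middle numbers to the trunk, and high numbers to the lumbar, sacral and tail levels. The gonad arises from the coelomic epithelium and mesoderm of the trunk.

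Single-cell RNA was measured by unique molecular identifiers (UMIs, each counting 1 captured transcript molecule) in 4 libraries, 1 per condition. The E10.5, E11.5 and E12.5 libraries came from XY gonads of strain ICR with the 10x 3′ version 2 kit. The mesonephros had been removed at E11.5 and E12.5, whereas the E10.5 piece still held the dorsal mesenchyme around the gonad. The D6 library came from XY aggregates of the stem cell line N271S9C (strain label C57BL/6J, though per the study's methods the parent stem cells came from 129X1/SvJ females crossed with C57BL/6J males), which carries *Nr5a1*-hCD271 and *Sox9*-2A-CGFP reporters, and was made with the version 3 kit after magnetic enrichment of hCD271-positive cells on day 6 of culture. These aggregates had passed through CHIR99021, BMP4 and EGF, then retinoic acid, Sonic hedgehog and PD0325901 with EGF and BMP4, then BMP4, FGF9 and IWR1. D6 is 1 culture of 1 line, and its kit, strain, sorting and culture cannot be told apart from its difference to the embryo.

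Limits on detected genes and mitochondrial UMIs left 2101 to 3837 cells and 11906360 to 34173977 UMIs per library. Median depth was 8167, 11926 and 10946 UMIs per cell in the embryo libraries by age and 4607 at D6. Retained barcodes shared between libraries numbered 8 (E10.5 and E11.5), 15 (E10.5 and E12.5) and 7 (E11.5 and E12.5), and none was shared with D6. The titles call all libraries XY although the protocol text speaks of female gonads. Levels are given below as counts per 1000000 UMIs of the same cells (CPM), and values listed in fours follow the embryo libraries by age with D6 last. A sum of 4 Y-linked genes stood at 106 to 205 CPM in the 4 libraries and *Xist* at 0.0615 to 1.18. Gonadal markers (*Gata4*, *Wt1*, *Nr5a1*, *Emx2* and *Lhx9*, all 5 with UMIs in every library) summed to 129.7, 654, 469.7 and 564 CPM. The sums of the 5 germ cell, 5 haemoglobin and 4 endothelial genes moved between libraries as well. Germ cell genes stood at 24.6, 598, 1842 and 12.3 CPM, haemoglobin genes at 14786, 9564, 489 and 0, and endothelial genes at 28.7, 69.6, 48.0 and 51.7. Since each condition is 1 library, differences between conditions have no replicate check and were not tested. Intervals below are exact Poisson or binomial 95% intervals on the UMIs or cells, or for the mean paralogue number a normal interval on them, and cover counting error only. In sums over a library, fewer expressing cells and less RNA per cell cannot be told apart.

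HoxA lies on the minus strand of GRCm38 at chr6:52155590-52260880, HoxB on the plus strand at chr11:96194316-96368256, HoxC on the plus strand at chr15:102921103-103036852 and HoxD on the plus strand at chr2:74668310-74765142. Gene models in the clusters overlap. In the GENCODE annotation *Hoxd3* shares 62.3% of its exon bases with other genes on its strand and *Hoxd4* 52.3%, and *Hoxa2*, *Hoxa3*, *Hoxc5* and *Hoxc10* share 5.37% to 15.0%. None of the 39 identifiers found in that annotation shared any of its 400 exon bases nearest the 3′ end, where this kit reads. The low values of *Hoxd3* and *Hoxd4* are nevertheless uncertain.

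The 3 HoxD genes that stood higher in the later gonads, *Hoxd8*, *Hoxd9* and *Hoxd10*, are neighbours on chromosome 2. Their RefSeq promoters (GRCm38.p6, plus strand, the 250 bases before the start site, at chr2:74704365-74704614, chr2:74697513-74697762 and chr2:74691641-74691890) are shown because these genes lead the results that follow. Capitals mark any match on either strand to TTTATG (the core of Cdx sites), AGGTCA (a retinoic acid receptor half-site), TATAAA (the core promoter box) or GGGCGG (an Sp1 box), words that may overlap.
Hoxd8: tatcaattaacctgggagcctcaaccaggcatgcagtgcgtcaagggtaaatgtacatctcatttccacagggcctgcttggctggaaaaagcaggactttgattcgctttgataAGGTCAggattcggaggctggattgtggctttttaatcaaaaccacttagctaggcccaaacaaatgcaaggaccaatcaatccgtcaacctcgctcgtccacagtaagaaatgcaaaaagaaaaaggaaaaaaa
Hoxd9: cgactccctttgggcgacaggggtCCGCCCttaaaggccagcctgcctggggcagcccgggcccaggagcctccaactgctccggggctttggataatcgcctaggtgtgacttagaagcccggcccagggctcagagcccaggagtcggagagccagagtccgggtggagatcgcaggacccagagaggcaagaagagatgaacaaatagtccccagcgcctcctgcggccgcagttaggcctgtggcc
Hoxd10: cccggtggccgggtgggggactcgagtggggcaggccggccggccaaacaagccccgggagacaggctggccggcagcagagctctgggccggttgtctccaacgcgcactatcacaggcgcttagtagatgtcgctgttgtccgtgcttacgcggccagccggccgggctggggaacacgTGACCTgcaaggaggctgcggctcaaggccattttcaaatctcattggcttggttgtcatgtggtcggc
*Hoxd8* and *Hoxd10* each held 1 AGGTCA and *Hoxd9* held 1 GGGCGG. None of the 3 windows held TTTATG or TATAAA. GC content was 44.4% in the *Hoxd8* window, 65.2% in that of *Hoxd9* and 65.6% in that of *Hoxd10*. RefSeq promoters were at hand for 22 Hox genes (24 promoters). Over these, AGGTCA was present in 6 (25.0%, against 14.0% of all 32851 promoters), TTTATG in 5 (20.8% against 10.8%), TATAAA in 4 (16.7% against 12.4%) and GGGCGG in 10 (41.7% against 32.7%). A match is a description of letters, not of binding.

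Hox RNA was abundant at E10.5 and in D6 and scarce in the older gonads (E11.5 and E12.5). Between E10.5 and the older gonads, age and the tissue collected cannot be told apart. The 39 genes together gave 1095 CPM at E10.5 (95% interval 1083 to 1106, 35589 UMIs) and 1112 CPM at D6 (1093 to 1131). The E11.5 library gave 313 CPM (306 to 320) and the E12.5 library 287 (282 to 293). The cluster in use differed as well. At E10.5 HoxA supplied 26.8% of the Hox UMIs, HoxB 26.2%, HoxC 40.9% and HoxD 6.18%. At E11.5 HoxD supplied 48.1% and HoxB 4.92%, and at E12.5 HoxD supplied 61.3% and HoxB 3.12%. D6 had the make-up of neither older gonad, with 17.4% HoxA, 31.4% HoxB, 43.8% HoxC and 7.36% HoxD. In CPM, HoxA stood at 293, 37.9, 17.0 and 194 and HoxB at 287, 15.4, 8.95 and 349. HoxC stood at 447, 109, 85.4 and 487, and HoxD at 67.6, 150.5, 176 and 81.9.

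**Figure D1:**
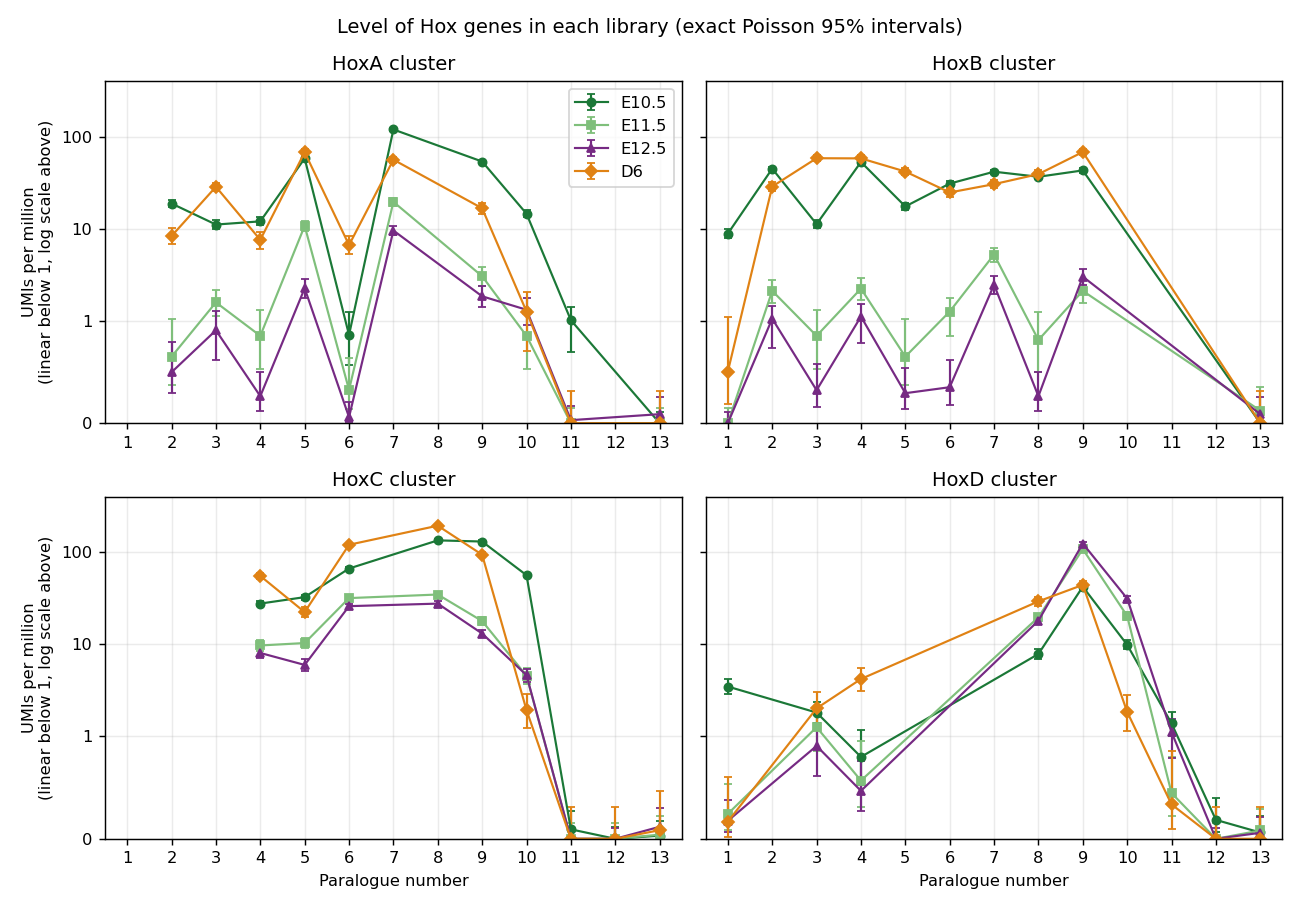
CPM (UMIs per 1000000, linear below 1, log scale above) of the Hox genes against their paralogue number, 1 panel per cluster and 1 line per library, with exact Poisson 95% intervals. Up to paralogue 9 in HoxA, HoxB and HoxC the E10.5 and D6 lines lie above the E11.5 and E12.5 lines. At *Hoxd9* and *Hoxd10* the E11.5 and E12.5 lines are highest, and the D6 line drops between paralogues 9 and 10.

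Group 9 held the most UMIs of the 13 paralogue groups in all 3 embryo libraries (24.6%, 41.9% and 49.4% of the Hox UMIs by age), and group 8 did in D6 (23.6%, with 20.0% in group 9). The mean paralogue number, weighted by UMIs, was lowest in D6, at 6.44 (6.41 to 6.48), and higher in each later embryo library. It was 6.88 at E10.5 (6.85 to 6.90), then 7.79 in the E11.5 library (7.75 to 7.83) and 8.24 in that of E12.5 (8.21 to 8.27), with no overlap between intervals. Paralogues 1 to 3 made up 9.50%, 2.26%, 1.41% and 11.496% of the Hox UMIs, paralogues 4 to 8 made up 58.3%, 47.4%, 35.7% and 68.0%, and paralogues 9 to 13 made up 32.2%, 50.3%, 62.9% and 20.5%.

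Among the anterior genes, *Hoxb1*, which acts in the hindbrain, and *Hoxd1* were below 10 CPM over all cells of each library. *Hoxb1* stood at 8.83 at E10.5 and 0.504 in D6, and had no UMI at E11.5 or E12.5. The value at E10.5 was at least 72.5-fold above what 3 UMIs would give at E11.5. *Hoxa2* stood at 18.7, 0.650, 0.497 and 8.31 CPM, and *Hoxb2* at 44.8, 2.11, 1.05 and 28.6. *Hoxa3* (11.1, 1.58, 0.907 and 28.5 CPM) and *Hoxb3* (11.2, 0.853, 0.322 and 58.1) were highest in D6, and *Hoxd3* stayed between 0.907 and 2.02. Libraries E10.5 and D6 were thus above both older gonads for *Hoxa2*, *Hoxa3*, *Hoxb2* and *Hoxb3*, with no overlap of counting intervals.

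The trunk genes of groups 4 to 8 supplied most Hox UMIs at E10.5 and D6. *Hoxa5*, known for its part in lung and neck development, stood at 57.9, 10.7, 2.25 and 67.5 CPM. *Hoxb4* stood at 52.9, 2.23, 1.11 and 57.9. *Hoxa7* was the leading HoxA gene of every embryo library, with 119, 19.5 and 9.54, and stood at 56.0 in D6. *Hoxc8*, a gene of the lower thorax, had the highest value of HoxC in all 4 libraries with 134, 34.7, 27.6 and 194 CPM. *Hoxc9* lay within its interval at E10.5 and *Hoxc6* at E12.5, and at E11.5 its interval overlapped that of *Hoxc6*. *Hoxc6* stood at 66.4, 31.7, 25.9 and 120.3 and *Hoxc4* at 27.7, 9.71, 8.05 and 55.2. Each of these genes was lowest at E12.5. *Hoxd8* differed from them, with 7.84, 19.7, 18.0 and 29.2 CPM. The remaining genes of these groups were *Hoxb5*, *Hoxb6*, *Hoxb7*, *Hoxb8* and *Hoxc5*, at 17.4 to 41.5 at E10.5 and 22.3 to 41.7 at D6 and at 0.263 to 10.3 in the older gonads, and *Hoxa4*, *Hoxa6* and *Hoxd4*, which did not pass 12.0 in any library.

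Of the posterior genes, *Hoxc9* stood at 130.4, 17.9, 13.1 and 93.7 CPM, *Hoxa9* at 53.5, 3.05, 1.84 and 16.6 and *Hoxb9* at 42.9, 2.11, 3.01 and 67.9. *Hoxd9* ran the other way in the embryo, with 42.2, 107.9 and 124.0 CPM by age, against 44.1 in D6. *Hoxd10* stood at 9.87, 20.3, 31.4 and 1.85. *Hoxc10*, a gene of the lumbar level, stood at 56.2, 4.55, 4.62 and 1.93 and *Hoxa10*, which also patterns the reproductive tract, at 14.5, 0.853, 1.32 and 1.26. *Hoxa11* and *Hoxd11*, which act together in kidney formation, did not pass 1.38. *Hoxc11*, *Hoxd12*, *Hoxd13*, *Hoxa13*, *Hoxb13* and *Hoxc13*, the hindgut and tail end of the code, did not pass 0.185. *Hoxc12* had no UMI in any library, for which the upper end of the Poisson interval was 0.108 CPM at E12.5 and 0.310 at D6. The highest-numbered gene at 10 CPM or more was *Hoxa10* in HoxA, *Hoxb9* in HoxB, *Hoxc10* in HoxC and *Hoxd9* in HoxD at E10.5. At E11.5 it was *Hoxa7*, none in HoxB, *Hoxc9* and *Hoxd10*, and at E12.5 none in HoxA or HoxB, *Hoxc9* and *Hoxd10*. In D6 it was the group 9 gene of each of the 4 clusters.

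From E10.5 to E11.5 nearly the whole code was lower and HoxD was higher. Calls below are changes of at least 2-fold on the log2(CPM + 5) scale among genes with a mean of at least 10 CPM in the pair, with no test behind them. Of the 18 Hox genes past that level, 14 were lower at E11.5, while 3.59% of 7892 genes were lower, and 1 (*Hoxd9*) was higher, while 6.34% of all genes were. The lower ones were all 3 of HoxA, all 6 of HoxB and 5 of 6 in HoxC. The median log2 ratio was -2.26 over the 18 genes and -0.10 over all genes tested. The largest log2 ratios on that scale, without the pseudocount in brackets with its interval, were -3.00 for *Hoxb4* (-4.57, -4.98 to -4.18), -2.86 for *Hoxa9* (-4.13, -4.49 to -3.80) and -2.84 for *Hoxb8* (-5.49, -6.21 to -4.86). Nearest to the limit were *Hoxc4* just past it at -1.15, *Hoxc6* just short of it at -0.96, and on the other side *Hoxd9* past it at 1.26 and *Hoxd8* and *Hoxd10* short of it at 0.94 and 0.77. Without the pseudocount the 3 HoxD genes were 2.51-fold (*Hoxd8*), 2.56-fold (*Hoxd9*) and 2.06-fold (*Hoxd10*) higher at E11.5. The tissue collected differed between these days, so age and tissue cannot be told apart. *Nr5a1* UMIs were found in 1.88% of the E10.5 cells and 34.7% of the E11.5 cells. Genes that mark dorsal and splanchnic tissue at E10.5 were lower in sum a day later. *Foxf1*, *Hand1*, *Hand2* and *Barx1* summed to 174 CPM at E10.5 and 11.2 at E11.5, of which *Hand2* held 22.3 and 9.58, and *Pax1*, *Pax9*, *Nkx3-2* and *Meox1* to 157 and 1.26.

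The same comparison was made within cells that had at least 1 UMI of *Upk3b*, a marker of coelomic epithelium (mesothelium). There were 311 such cells at E10.5 and 308 at E11.5, and 67.8% and 90.6% of them also had *Wt1* UMIs. Of the other genes on the list of this gate, *Lrrn4* was found in 24.8% and 36.7% of the cells. The keratin genes *Krt19* (42.8% and 34.1%) and *Krt8* (47.3% and 37.7%) were found in fewer cells on the later day. These gates did not hold like cells in other respects, since 67 of the earlier and 188 of the later cells had *Gata4* UMIs, 28 and 105 had *Nr5a1* UMIs, and 72 and 0 had *Foxf1* UMIs. Their Hox sum was 1052 CPM (1015 to 1090) on the earlier day and 607 (584 to 631) on the later. Of 18 Hox genes past the level, 12 were lower at E11.5 (3.14% of all genes were) and 3 were higher (4.54% of all genes were). The 3 were *Hoxd8* (14.4 and 45.6 CPM), *Hoxd9* (63.4 and 245) and *Hoxd10* (9.46 and 52.8). *Hoxd10* was thus 5.58-fold higher, with a log2 interval of 1.90 to 3.11, and *Hoxd9* 3.87-fold higher, with 1.72 to 2.19. *Hoxc6*, in contrast, was level in this gate at 50.1 and 51.8 CPM, with a log2 interval of -0.26 to 0.36. HoxD made up 8.56% of the Hox UMIs of the earlier *Upk3b* cells (7.58% to 9.62%) and 57.7% of those of the later (55.8% to 59.6%). Among those with *Gata4* UMIs the HoxD shares were 15.5% and 57.1%, and among those without 6.62% and 58.9%.

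Between E11.5 and E12.5 no Hox gene passed 2-fold in either direction among 7 past the level, where 0.969% of 7945 genes were higher and 0.73% were lower. *Hoxa7* came closest, at 19.5 and 9.54 CPM and a log2 ratio of -0.75 on the pseudocount scale. Without the pseudocount *Hoxa7* was 2.05-fold lower at E12.5 (log2 interval -1.24 to -0.83). *Hoxa5*, at 10.7 and 2.25 CPM, missed the level limit. It was 4.76-fold lower (log2 interval -2.64 to -1.88), and its log2 ratio on the pseudocount scale was -1.12. *Hoxd10* was 1.54-fold higher at E12.5 (log2 interval 0.47 to 0.78) and *Hoxd9* 1.15-fold higher (0.13 to 0.27), whereas *Hoxc6*, *Hoxc8* and *Hoxc9* were 1.22-fold, 1.26-fold and 1.37-fold lower. The sum over the 39 genes was 1.09-fold lower at E12.5. Without germ, erythroid and endothelial cells it was higher at E12.5 by 0.12 on the log2 scale, and germ cells numbered 189 of 2101 cells at E11.5 and 446 of 2764 at E12.5.

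D6 cells held far more HoxA, HoxB and HoxC RNA than E12.5 gonad cells and less of the 2 posterior HoxD genes. Of 19 Hox genes past the level, 16 were higher in D6, against 18.9% of 8837 genes, and 2 were lower, against 5.5%. With TMM scaling, which moved the share of all genes called to 9.10% higher and 15.2% lower, 14 of 18 Hox genes were higher and 2 lower. The median log2 ratio of the 19 genes was 2.47. That of all genes tested was 0.23, and -0.17 with TMM scaling. The 5 with the largest ratio on the pseudocount scale were *Hoxb3* (3.57), *Hoxb4* (3.36), *Hoxa5* (3.32), *Hoxb9* (3.18) and *Hoxb5* (3.14). *Hoxb3*, at 692 UMIs in D6 and 11 at E12.5, was 181-fold higher after scaling to depth, with a log2 interval of 6.65 to 8.51. *Hoxb4* was 52.0-fold higher, *Hoxa5* 30.0-fold, *Hoxb9* 22.5-fold and *Hoxb5* 142-fold. The HoxC genes past the level ran from 3.74-fold for *Hoxc5* to 7.17-fold for *Hoxc9*, whereas *Hoxc10*, below the level, was 2.39-fold lower in D6 (log2 interval -1.958 to -0.62). *Hoxd8* was 1.62-fold higher and not called, *Hoxd9* was 2.81-fold lower (log2 interval -1.63 to -1.36) and *Hoxd10* 17.0-fold lower (-4.77 to -3.48).

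**Figure D2:**
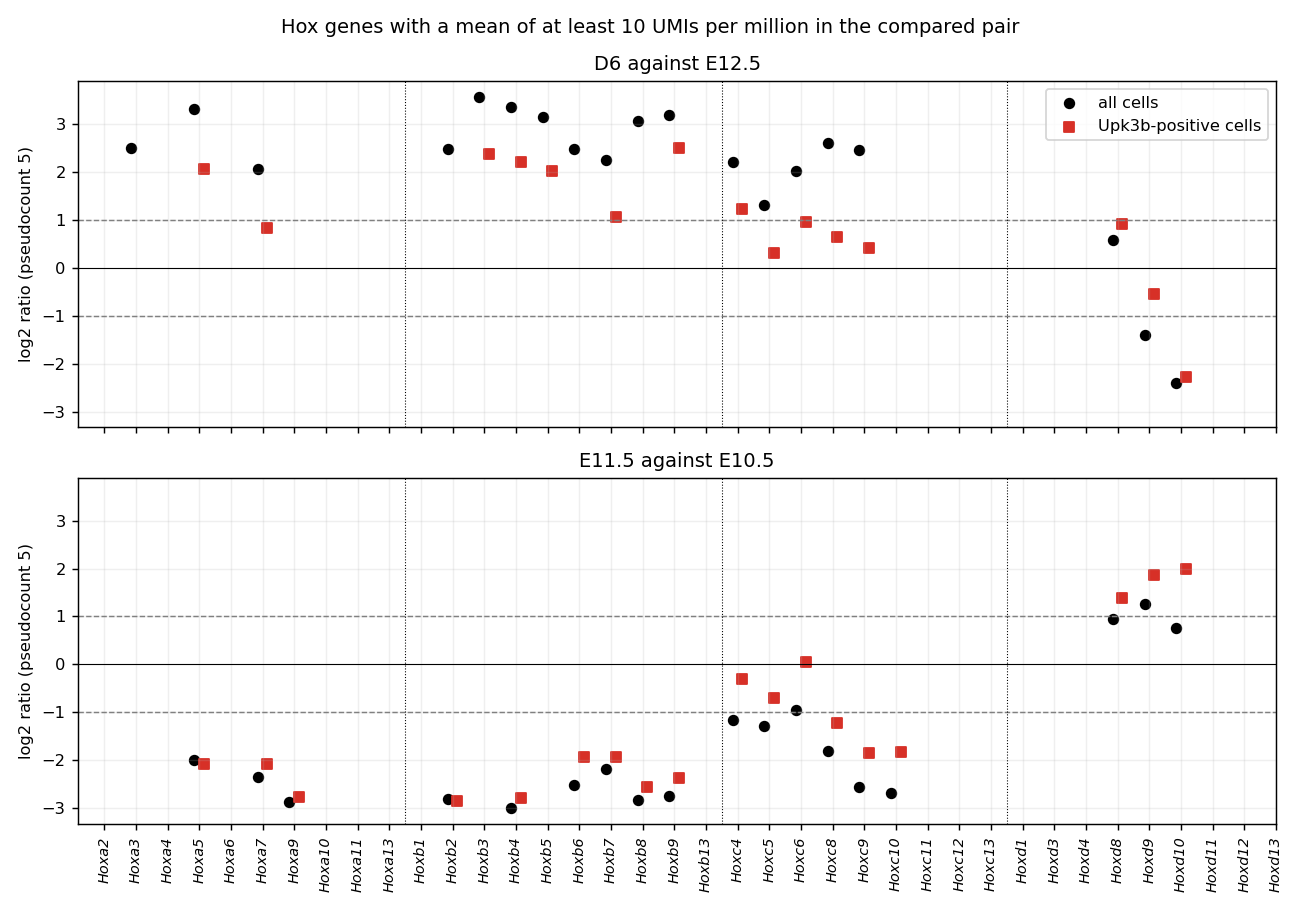
Log2 ratio (pseudocount of 5 CPM) of each Hox gene with a mean of at least 10 CPM in the pair, for D6 against E12.5 (top) and E11.5 against E10.5 (bottom). Black circles are all cells, red squares *Upk3b*-positive cells, dashed lines the 2-fold limits and dotted lines the borders between HoxA, HoxB, HoxC and HoxD. Over all cells the highest point in D6 is *Hoxb3* (3.57) and the lowest at E11.5 is *Hoxb4* (-3.00), and the HoxD points lie above 0 at E11.5 and, except *Hoxd8*, below 0 in D6.

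The difference in the Hox sum was smaller within marker gates, with a log2 ratio of 1.95 over all cells, 0.59 within *Upk3b* cells and 1.35 within *Pdgfra* cells. TMM scaling lowered the ratio over all cells to 1.48. Sums and calls within the gates are in CPM only and were not made with TMM scaling. Among *Upk3b* cells (186 in D6 and 257 at E12.5), 7 of 15 Hox genes were higher in D6, while 16.5% of 8401 genes were, and 1 was lower, while 3.57% were. The 7 were *Hoxa5*, *Hoxb3*, *Hoxb4*, *Hoxb5*, *Hoxb7*, *Hoxb9* and *Hoxc4*. *Hoxd9* stood at 168 CPM in D6 and 247 at E12.5 and passed no limit, but *Hoxd10* stood at 5.54 and 46.0 and was 8.30-fold lower. Among cells with *Pdgfra*, a receptor of interstitial and other mesenchymal cells (604 and 1103 cells), 17 of 20 were higher (20.2% of 8715 genes were) and 2 were lower (4.91% were). *Hoxd9* stood at 52.5 and 225 CPM in these cells and *Hoxd10* at 2.50 and 58.5. These D6 and E12.5 gates were not equal in other respects. Of *Pdgfra* cells, 53.3% in D6 and 75.2% at E12.5 had *Tcf21* UMIs, and 75.3% and 36.4% had *Col1a1* UMIs.

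The 39-gene profile of D6 lay closer to E10.5 than to the older gonads. Pearson's r of log2(CPM + 5) across the 39 genes, which are not independent replicates, was 0.84 between D6 and E10.5, 0.62 between D6 and E11.5 and 0.50 between D6 and E12.5, while E11.5 and E12.5 had 0.97. Set against E10.5, a comparison added after the values were seen, 4 of 21 Hox genes were higher in D6 (24.4% of 8767 genes were) and 3 were lower (7.24% were). The higher ones were *Hoxa3*, *Hoxb3*, *Hoxb5* and *Hoxd8* and the lower ones *Hoxa7*, *Hoxa9* and *Hoxc10*. *Hoxc10* stood at 1.93 CPM in D6 and 56.2 at E10.5, 29.1-fold lower with a log2 interval of -5.52 to -4.27. *Hoxa10* was also lower in D6, at 1.26 against 14.5, and missed the level limit. *Hoxd9* (44.1 and 42.2) and *Hoxb8* (39.1 and 36.5) were level in CPM, with log2 intervals of -0.08 to 0.21 and -0.06 to 0.25. That reading depends on the scaling. The median log2 ratio of all genes tested between D6 and E10.5 was 0.24 in CPM and -0.20 with TMM scaling. The TMM factor of D6 was larger than that of E10.5, so this scaling lowers every D6 ratio of the pair by the same factor. *Hoxd9* and *Hoxb8* are then lower in D6, with log2 intervals below 0, and not level. *Hoxa3* and *Hoxb5*, just past the 2-fold limit in CPM, then fall short of it, and *Hoxa2* passes it on the lower side. The full set of Hox calls of this pair was not remade with TMM scaling.

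Group 10 was scarce beside group 9 in D6. Group 10 UMIs as a share of group 9 and group 10 UMIs together, a ratio that needs no scaling between libraries, was 23.1% (22.3% to 23.8%) at E10.5, with 2620 UMIs of group 10 and 8741 of group 9. It was 16.4% (15.3% to 17.6%) and 20.8% (19.8% to 21.9%) in the later gonads. In D6 it was 2.22% (1.70% to 2.84%), with 60 UMIs and 2647. D6 was lowest in each cluster with a group 10 gene. The share was 21.3%, 21.9% and 41.7% in HoxA of the embryo libraries and 7.04% in D6, 30.1%, 20.3% and 26.1% against 2.02% in HoxC, and 19.0%, 15.8% and 20.2% against 4.02% in HoxD. Within D6 it was 2.91% in *Upk3b* cells, 2.26% in *Pdgfra* cells and 1.48% in cells with *Sox9*, the gene that directs Sertoli cell fate. The same gates at E12.5 had 16.7%, 21.3% and 20.2%. Cells with *Nr5a1* UMIs at E10.5 had 3.05% (1.00% to 6.97%), an interval that overlaps that of D6. Their gate was added after the values were seen. The *Sox9* gates were not alike in Sertoli cell markers. *Amh*, *Dhh* and *Ptgds* UMIs were found in 18.2%, 6.51% and 18.5% of the D6 *Sox9* cells. At E12.5 they were found in 61.0%, 55.7% and 60.4%.

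**Figure D3:**
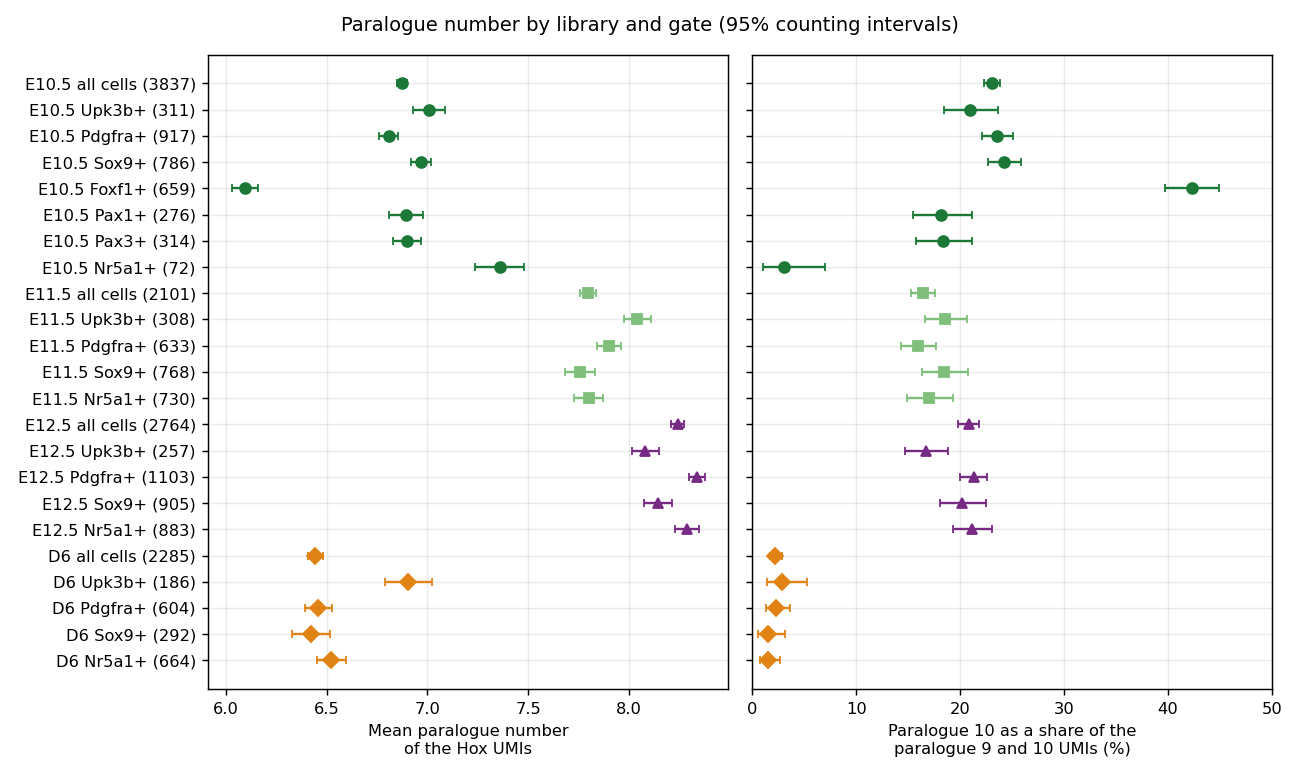
Mean paralogue number of the Hox UMIs (left) and share of group 10 among group 9 and 10 UMIs in percent (right) for each library and each marker gate of 50 cells or more, with 95% counting intervals, cell numbers in brackets and colours for the libraries. All D6 gates have a group 10 share under 3%, as have no embryo gates. The nearest are the *Nr5a1* cells of E10.5 at 3.05%, whose interval (1.00% to 6.97%) overlaps those of the D6 gates. *Foxf1* cells of E10.5 have the lowest mean paralogue number and the highest group 10 share. The *Nr5a1* gate was added after the values were seen.

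At E10.5 all 6 marker gates held enough cells to compare. They were *Upk3b* (311 cells), *Pdgfra* (917), *Sox9* (786), *Foxf1* (659), a gene of splanchnic mesoderm, *Pax1* (276), a gene of the sclerotome, and *Pax3* (314), a gene of the dermomyotome. A cell may be in several, as were 755 of the 3837 cells, while 1454 were in none. The largest overlaps in cells were 218 between *Pdgfra* and *Sox9* (23.8% and 27.7% of the gates) and 214 between *Pdgfra* and *Foxf1* (23.3% and 32.5%). *Sox9* and *Pax1* shared 170 cells, 21.6% of the *Sox9* gate and 61.6% of the *Pax1* gate. Of *Foxf1* cells, 52.7% had *Hand1*, 26.6% had *Barx1* and 22.0% had *Hand2* UMIs. Of *Pax1* cells, 44.2% had *Pax9* and 80.1% *Meox1* UMIs, but only 0.362% had UMIs of *Nkx3-2*, which is on the same list. Of *Pax3* cells, 77.4% had *Meox1* and 11.1% *Met* UMIs. *Amh*, *Dhh* and *Ptgds*, which mark Sertoli cells, were found in at most 0.3% of the *Sox9* cells at E10.5, so the *Sox9* gate of that day was not one of Sertoli cells by its list. *Sox10* was found in 2.2% of the *Pax3* cells.

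Hox RNA was present at 1018 to 1200 CPM in each of the 6 gates, but its make-up differed. *Foxf1* cells had the lowest mean paralogue number, 6.10 (6.03 to 6.16), and the other 5 lay between 6.81 and 7.01. HoxB made up 38.1% of the Hox UMIs in *Foxf1* cells (36.9% to 39.4%) and 15.3% in *Pax3* cells (14.1% to 16.5%), and HoxC made up 27.9% and 51.2%. *Foxf1* and *Pax3* were chosen for a direct comparison after these values were seen. Of 23 Hox genes past the level, 8 were higher in *Foxf1* cells (2.91% of 7586 genes were) and 4 were lower (1.85% were). *Hoxb1* stood at 29.4 CPM in *Foxf1* cells and 2.04 in *Pax3* cells, *Hoxb4* at 109.0 and 35.7, *Hoxb6* at 68.0 and 15.0 and *Hoxd10* at 25.0 and 1.70. The other higher genes were *Hoxa4*, *Hoxb2*, *Hoxb5* and *Hoxd9*. *Hoxa7* (70.0 and 211), *Hoxc6* (33.6 and 108.8), *Hoxc8* (84.2 and 229) and *Hoxc9* (63.2 and 143) were lower.

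*Foxf1* cells also had the highest share of anterior genes and the highest ratio of group 10 to group 9 among the 6 gates. Paralogues 1 to 3 made up 14.9% of their Hox UMIs, against 6.63% to 10.2% in the other 5 gates. Group 10 supplied 42.3% of their group 9 and 10 UMIs (39.7% to 44.9%), against 18.2% to 24.3% in the others. Their *Hoxc10* stood at 67.3 CPM beside 63.2 for *Hoxc9*, while in *Pax3* cells *Hoxc10* stood at 42.2 beside 143. HoxD was least used by the somite gates, with 2.50% of Hox UMIs in *Pax1* cells (1.94% to 3.17%) and 3.49% in *Pax3* cells (2.90% to 4.14%), and was at 8.56% in *Upk3b* cells. *Hoxd9* ran from 16.6 CPM in *Pax1* cells and 19.4 in *Pax3* cells, which did not differ beyond their intervals, through 37.9 in *Sox9*, 44.1 in *Foxf1* and 49.5 in *Pdgfra* cells to 63.4 in *Upk3b* cells.

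**Figure D4:**
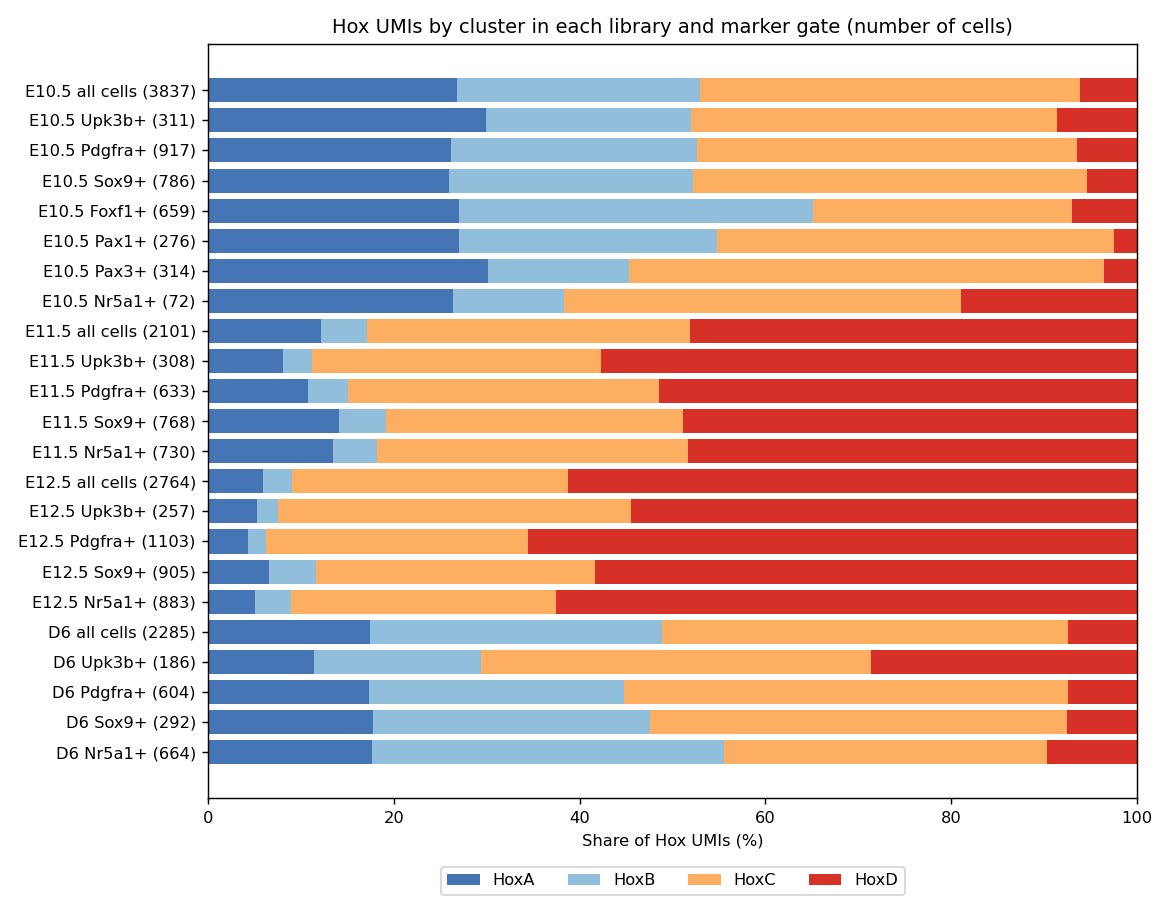
Share of the Hox UMIs in percent that each cluster supplied, for each library and each marker gate of 50 cells or more, with the number of cells in brackets. HoxD (red) is under 20% in every E10.5 gate and over 48% in every E11.5 and E12.5 gate, and in D6 it is widest in *Upk3b* cells. The *Nr5a1* gate was added after the values were seen.

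At E11.5 and E12.5 the *Foxf1*, *Pax1* and *Pax3* gates held 0 to 10 cells and are not described. The other 3 gates differed in amount more than in make-up. *Upk3b* cells had 607 and 621 CPM of Hox RNA on the earlier and later day, *Pdgfra* cells 408 and 488, and *Sox9* cells 243 and 210, with no overlap between the intervals of the gates on either day. The gates were not separate sets of cells. *Pdgfra* UMIs were also found in 103 and 113 of the *Upk3b* cells and in 219 and 259 of the *Sox9* cells, and 85 and 43 cells had both *Upk3b* and *Sox9* UMIs. HoxD supplied 48.8% to 57.7% of the Hox UMIs in these gates on the earlier day and 54.5% to 65.5% on the later. The share was higher on the later day in *Pdgfra* cells (51.5% and 65.5%) and *Sox9* cells (48.8% and 58.4%). In *Upk3b* cells it was not, with 57.7% (55.8% to 59.6%) and 54.5% (52.4% to 56.6%). The mean paralogue number of *Upk3b* cells was 8.04 (7.98 to 8.11) and 8.08 (8.01 to 8.15), against 7.90 and 8.34 in *Pdgfra* cells and 7.76 and 8.14 in *Sox9* cells. *Hoxd9* stood at 247 CPM in *Upk3b* cells, 225 in *Pdgfra* cells and 84.5 in *Sox9* cells at E12.5, and *Hoxd10* at 46.0, 58.5 and 21.5. *Hoxb9* went against that order at E12.5, with 6.39 CPM in *Sox9* cells, 2.75 in *Upk3b* cells and 2.37 in *Pdgfra* cells. Of the *Sox9* cells of E12.5, 61.0% had *Amh* and 60.4% *Ptgds* UMIs.

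In D6 the *Upk3b* cells stood apart from the rest by their HoxD genes. HoxD made up 28.6% of their Hox UMIs (26.1% to 31.3%), against 7.44% in *Pdgfra* cells (6.64% to 8.30%) and 7.55% in *Sox9* cells (6.43% to 8.79%). *Hoxd9* stood at 168 CPM in *Upk3b* cells, 52.5 in *Pdgfra* cells and 50.9 in *Sox9* cells. *Hoxd8* stood at 73.6, 31.3 and 28.4 and *Hoxd4* at 13.45, 3.75 and 5.79, while *Hoxb3* stood at 22.2, 60.6 and 60.2 and *Hoxc8* at 134.5, 259 and 211. The mean paralogue number was 6.90 in *Upk3b* cells (6.79 to 7.02), 6.46 in *Pdgfra* cells and 6.42 in *Sox9* cells. The *Upk3b* cells were deeper, with a median of 6605 UMIs per cell against 4664 and 5344, and 26 of the 186 were also *Pdgfra*-positive. Among D6 cells with at least 5 Hox UMIs, HoxD supplied 50% or more in 24.1% of 116 *Upk3b* cells and in 1.82% of 1096 other cells. Over all cells with at least 5 Hox UMIs the share was 3.96% of 1212 cells in D6 (2.93% to 5.22%). In the embryo by age it was 1.44% of 2913 (1.04% to 1.94%), 57.4% of 655 (53.5% to 61.2%) and 73.8% of 881 cells (70.7% to 76.7%). The libraries held 3837, 2101, 2764 and 2285 cells in all, so cells poorer in Hox UMIs are not covered. The 39-gene profile of the D6 *Upk3b* cells had r = 0.77, 0.80 and 0.77 with the *Upk3b* cells of the embryo libraries by age, so no embryonic day stood out.

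*Nr5a1*, which encodes the orphan nuclear receptor SF-1 needed to form gonads and adrenals, gave a further gate, added after the values were seen. At E10.5 it held 72 cells. HoxD supplied 19.0% of their Hox UMIs (16.0% to 22.3%) and 5.95% of those of the other 3765 cells (5.70% to 6.199%), and HoxB 12.0% and 26.4%. *Hoxd9* stood at 125.6 CPM, *Hoxd8* at 36.7, *Hoxb9* at 9.88 and *Hoxc10* at 1.41, from 1 UMI. Group 10 gave 5 UMIs beside 159 of group 9, 3.05% (1.00% to 6.97%), against 23.4% in the other cells. The same direction was seen among *Upk3b* cells of E10.5 divided by *Gata4*, an early gonadal factor: HoxD supplied 15.5% in the 67 with *Gata4* UMIs (12.8% to 18.4%) and 6.62% in the 244 without (5.64% to 7.70%). At the later ages the HoxD share of *Nr5a1* cells was near that of the other cells, with 48.4% and 48.0% at E11.5 and 62.6% and 60.7% at E12.5. In D6, 664 cells had *Nr5a1* UMIs and HoxD supplied 9.69% of their Hox UMIs against 6.59% in the other 1621, with *Hoxd9* at 41.0 and 45.8 CPM. Their Hox sum was 794 CPM against 1283, with *Hoxc8* at 109 against 240 and *Hoxc9* at 38.8 against 123, while *Hoxb9* (84.4 against 59.0) and *Hoxb7* (41.9 against 24.2) were higher.

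Per cell, the median number of Hox genes with a UMI was 5, 1, 1 and 4. At 3000 UMIs drawn per cell, with 184, 308, 0 and 287 shallower cells left out, the medians were 2, 0, 0 and 2 and the means 2.62, 0.784, 0.767 and 2.74. The share of cells without a Hox UMI was then 9.31%, 52.0%, 51.9% and 10.1%. As deposited it was 4.14%, 32.0%, 31.7% and 5.12%. A gene of group 10 or higher was found at 3000 UMIs in 1.65% of D6 cells (1.14% to 2.31%), against 12.98% (11.9% to 14.1%), 6.80% (5.68% to 8.07%) and 9.73% (8.65% to 10.9%) of the embryo cells by age. As deposited those shares were 2.45% in D6 and 19.3%, 14.9% and 23.0% in the embryo. Among 71 *Nr5a1* cells of E10.5 the share at 3000 UMIs was 1.41% (0.0357% to 7.60%), an interval that holds the D6 value. It was 4.61% and 7.81% in the *Nr5a1* cells of E11.5 and E12.5 and 0.635% in those of D6. This gate was added after the values were seen. The highest paralogue in a cell was most often group 9 wherever any was found, in 34.2%, 22.6%, 25.5% and 41.4% of the cells.

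**Figure D5:**
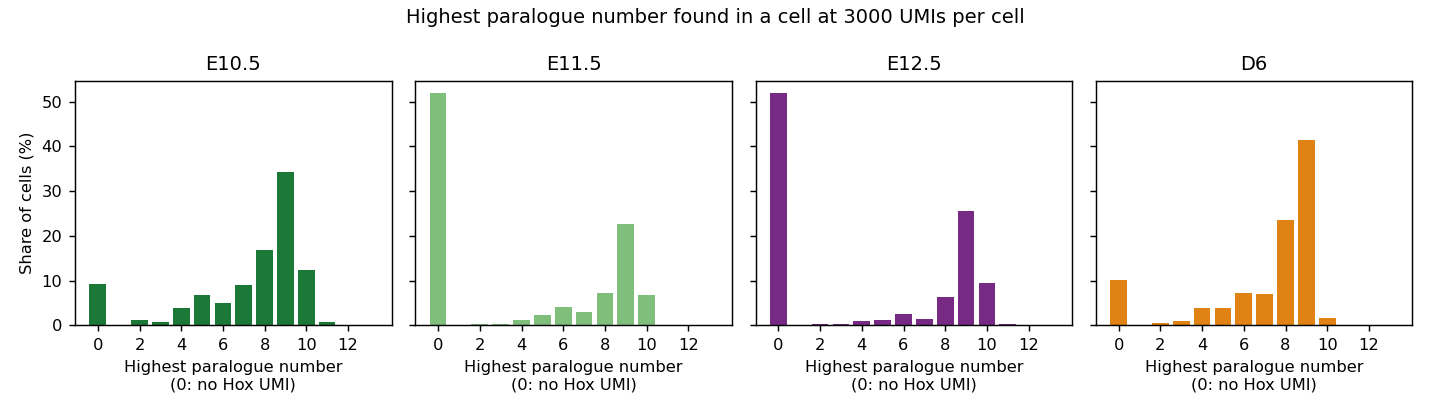
Share of cells in percent by the highest paralogue number found in the cell after thinning to 3000 UMIs, with 0 for cells without a Hox UMI, 1 panel per library. The bar at 0 is above 50% at E11.5 and E12.5 and near 10% at E10.5 and D6, and the bar at 10 is smallest in D6.

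Germ and erythroid cells held little Hox RNA. Germ cells had 12.0 CPM of Hox RNA in the E11.5 library (8.32 to 16.6) and 9.24 in that of E12.5 (7.32 to 11.52), and erythroid cells 19.9 in that of E10.5 (11.8 to 31.4). At 3000 UMIs, 0.897% of the E12.5 germ cells had a UMI of group 10 or higher, against 9.73% of all cells of that library, and 0.448% had a *Hoxd9* UMI, against 27.7%. Median depths were 18637 UMIs per germ cell and 10946 over all cells. The Hox UMIs of these germ cells differed in make-up from those of their library, with 40.5% from HoxA (29.6% to 52.1%) against 5.91%, and a group 10 share of 54.8% (38.7% to 70.2%) against 20.8%. They are therefore no plain measure of free RNA. D6 held 2 germ cells and 0 erythroid cells, so how much of its low group 10 signal was background was not measured.

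Genes that work with or upstream of Hox proteins were taken from fixed lists. TALE homeodomain proteins bind DNA jointly with Hox proteins, and of their 9 genes 8 passed the level between D6 and E12.5, 5 were higher in D6 and 0 lower, where 18.9% of all genes were higher and 5.5% lower. Among the higher genes, *Meis2* stood at 291, 73.7, 58.3 and 495 CPM and *Meis1* at 158, 66.5, 39.4 and 270.4. *Pbx3* (15.2 at E12.5 and 53.8 at D6) and *Meis3* (8.46 and 23.8) were also higher. *Meis1* and *Meis2* thus had more UMIs in E10.5 and D6 than in both older gonads. With TMM scaling 4 of the 8 were higher, *Meis3* no longer, where 9.10% of all genes were.

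Of 8 axial regulators, only *Gdf11*, a ligand of the trunk-to-tail switch (3.66 at E12.5 and 25.4 at D6), and *Kat6a*, a histone acetyltransferase that keeps Hox genes on (19.4 and 102.6), passed the level, and both were higher in D6, where 18.9% of all genes were. *Cdx1*, *Cdx2*, *Cdx4*, *T*, *Wnt3a* and *Fgf8* stood at 4.83 or less in every library. Of 18 genes for retinoic acid, a signal that opens Hox clusters, 11 passed the level, 5 were higher and 1 lower in D6, against the same 18.9% and 5.5% of all genes. *Aldh1a1*, which makes retinoic acid, stood at 1.63, 126.8, 196 and 33.7 CPM and was the lower one. *Rara* (29.6 at E12.5 and 76.8 at D6), *Dhrs3* (18.9 and 78.3), *Aldh1a3* (2.72 and 33.2) and *Rxra* (7.58 and 23.7) were among the higher ones. *Crabp1* stood at 278 at E10.5 and 19.1 at E11.5, *Crabp2* at 245 and 15.8, and *Aldh1a2* at 106.5 and 61.9. With TMM scaling, 2 of the 11 were higher (*Aldh1a3* and *Dhrs3*), where 9.10% of all genes were.

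Polycomb proteins keep Hox genes silent and trithorax proteins keep them active. Of their 20 genes 18 passed the level, 6 were higher in D6 and 0 lower, where 18.9% of all genes were higher and 5.5% lower. With TMM scaling 2 of the 18 were higher, *Jarid2* and *Kdm6b*, a share near the 9.10% of all genes. *Kdm6b*, a histone H3 lysine demethylase that removes the Polycomb mark, stood at 41.7, 40.1, 30.4 and 348 CPM, and *Jarid2*, a Polycomb partner, at 28.8, 50.6, 51.9 and 244. *Kmt2a* (33.9 at E12.5 and 95.3 at D6), *Kdm6a* (14.3 and 44.85), *Ezh1* (11.03 and 30.1) and *Pcgf2* (19.3 and 46.6) were the others. *Ezh2*, the Polycomb methyltransferase, stood at 256, 138, 167 and 115, *Eed* at 72.1, 40.9, 52.4 and 34.1, and *Rnf2* and *Suz12* at 71.6 and 28.3 at E10.5 and 62.7 and 76.9 at D6. The 6 other homeobox genes of the fixed lists (*Evx1*, *Evx2*, *Gbx2*, *Mnx1*, *Pdx1* and *Gsx1*), which are not Hox genes, did not pass 2.21 in any library.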

How the data were processed

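The deposited matrices hold raw UMI counts per gene and cell that the authors made from 10x 3′ reads on mm10, with Cell Ranger 3.0.2 per the processing notes and 6.0.0 per the file headers. The limits of the study (detected genes over 1000, 500, 2000 and 1000 and under 4000, 5000, 5000 and 4000, mitochondrial UMIs under 10%, 20%, 8% and 12% at E10.5, E11.5, E12.5 and D6) were applied. Doublets were removed only in an alternative (Scrublet in scanpy 1.11.5, top scores at 0.8% per 1000 cells). Levels are counts per 1000000 UMIs (CPM) of the summed cells, which for a 3′ kit do not scale with transcript length. Gates are cells with at least 1 UMI of the marker and gates under 50 cells were left out. Germ cells had at least 5 UMIs of the germ list, endothelial cells at least 3 UMIs of theirs, and erythroid cells at least 10% haemoglobin UMIs. A change of 2-fold with a pseudocount of 5 and a mean level of at least 10 was called, with no p-value because each condition is 1 library, and the step was tested on simulated data. TMM factors came from edgeR 4.0.16. Named genes are the members, and a few genes of the members and lists are counted but not reported here. Values are given for those at 50 CPM in any library, for the highest-numbered gene at 10 in each cluster and for the 5 largest D6 ratios each way, of which only 2 were called lower, and further members are named by group. List genes are named at 50 or past 2-fold in D6, with others as counts. Members and lists were chosen with earlier results of these data known. The alternatives of the closing section were planned beforehand except those stated as added.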

Additional observations from a re-analysis of the deposited data

Results flagged for a closer look

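Genes inside the clusters that are not among the 39 also gave UMIs, outside the main measurement and above the limit that 3 UMIs set. Of 17 such genes in the files, 7 reached 5 CPM in some library. *Hotairm1*, an antisense noncoding RNA of HoxA, stood at 12.2, 3.82 and 1.05 CPM in the embryo libraries by age and at 55.5 in D6 (51.4 to 59.9). *Gm15050* and *Hoxaas3*, also antisense in HoxA, stood at 9.07 and 6.86 at E10.5 and at 9.99 and 6.64 at D6. *Gm53*, a noncoding gene between *Hoxb13* and *Hoxb9*, went against its cluster, with 8.52, 17.9, 27.8 and 19.1 CPM. *Hoxb5os* stood at 16.5, 0.244, 0.0878 and 6.30, and *Hoxb3os* at 5.81, 1.503, 1.90 and 17.6. *Hoxd3os1* stood at 3.60, 8.12, 8.60 and 12.7, in the same order of libraries. No difference between libraries was tested, as each is 1 library.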

How the results depend on the processing

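No paired analysis was possible because each condition is 1 library, and no library could be left out. Of 112 values under alternatives, 73 stayed the same, 36 moved and 3 turned their sign. The cause of these shifts was not tested. Sums, mean paralogue numbers and ranges were called the same within their counting interval, and gene counts where their ratio was small. Without the level limit, 21 lower genes at E11.5 for 14 and 20 higher in D6 for 16 were thus called the same. The 1 cell limit was that of E10.5, so values of E10.5 alone could not change under it. For the log2 ratio of the Hox sum, main values were -1.81 (E11.5 against E10.5), -0.12 (E12.5 against E11.5) and 1.95 (D6 against E12.5). These became, in that order, -1.76, -0.032 and 1.81 with 1 cell limit, -1.76, -0.018 and 1.83 with cells weighted equally, -1.70, 0.12 and 1.55 without germ, erythroid and endothelial cells, -2.43, -0.33 and 2.69 without the leading Hox gene, -0.79, 0.034 and 0.59 within the *Upk3b* gate and -1.52, 0.26 and 1.35 within the *Pdgfra* gate, both gates being added after seeing the data. TMM scaling gave 1.48 for D6. The mean paralogue number was 6.72, 7.16, 7.67 and 6.12 (E10.5, E11.5, E12.5, D6) without the leading gene, 6.84 at E10.5 with equal weights and 7.75 at E11.5 with 1 cell limit. Its range over the gates was 0.91 at E10.5, 1.09 at 2 marker UMIs, and 0.48 over 3 gates in D6, 0.68 at 2 UMIs and 0.67 without the leading gene. Genes higher at E11.5 numbered 1, but 2 without the 3 cell types, with a pseudocount of 1 or in the *Pdgfra* gate, and 3 in the *Upk3b* gate. Genes lower at E12.5 numbered 0, and 1 without the level limit. In D6 against E12.5 the *Upk3b* gate gave 7 higher for 16 and 1 lower for 2. Thinning moved the median Hox genes per cell from 5, 1, 1 and 4 to 2, 0, 0 and 2. Depth limits genes near 1 CPM and D6 cells most.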

Other observations

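Endothelial cells, taken as cells with at least 3 UMIs over *Pecam1*, *Cdh5*, *Kdr* and *Emcn*, had a Hox make-up of their own at E10.5. Their Hox sum was 358 CPM in 61 cells (312 to 408), against 1095 over the library, and HoxA supplied 49.1% of it (42.4% to 55.9%), HoxB 35.1%, HoxC 12.2% (8.17% to 17.2%) and HoxD 3.60%. At E11.5, 161 such cells had 321 CPM, near the 313 of the library, with 45.0% from HoxD (41.6% to 48.4%) and 33.8% from HoxC. At E12.5, 118 such cells had 141 CPM (125 to 159), with 36.8% from HoxD and 30.0% from HoxC. HoxD thus supplied 61.3% over the E12.5 library and less in these cells. The endothelial cells overlapped the germ cells, which held little Hox RNA. Germ, erythroid and endothelial cells numbered 446, 1 and 118 at E12.5 but 507 together, and 189, 21 and 161 at E11.5 but 334 together. The Hox sums of the endothelial cells on these days are therefore partly those of germ cells. In D6 32 endothelial cells were found, too few for the gate limit.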
